A study of Mus musculus with 15 samples.

Results

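Genes that drive the cell cycle and DNA replication were followed across 4 groups of mouse aortic valves. The set is a list of 42 genes chosen by name, and all 42 were found among the 18073 genes of the deposited table, with Cdk1 under its older name Cdc2a. By role, 3 are regulators of the step from G1 into S phase, 9 license origins or form the replicative helicase, and 5 act at the replication fork or make nucleotides. The other 25 act in mitosis: 8 are cyclins and kinases of mitotic entry with their activators, 8 belong to the spindle checkpoint, kinetochore or anaphase machinery, and 9 act on chromosomes, the spindle midzone and cytokinesis.

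RNA was sequenced from the 3 leaflets of the aortic valve of each of 15 C57BL/6 mice aged 2 months, after the cells had been released with collagenase. The wild-type long-telomere group (label N1WT_TercWT) held 4 mice with wild-type Notch1 and wild-type Terc, and the heterozygous long-telomere group (N1het_TercWT) held 4 mice heterozygous for Notch1 with wild-type Terc. The wild-type short-telomere group (N1WT_TercG2) held 3 mice with wild-type Notch1, and the heterozygous short-telomere group (N1het_TercG2) held 4 mice heterozygous for Notch1; both were generation 2 Terc-/-. Notch1 encodes a receptor for signals between touching cells, and Terc encodes the RNA template with which telomerase extends chromosome ends, so the loss of Notch1 could be compared on long and on shortened telomeres. The Notch1 and Terc mutations are not limited to a cell type in the labels.

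The deposited table holds 1 FPKM value (fragments counted on a gene, scaled by transcript length and by the number of mapped fragments) per gene and group and none per mouse. The spread between mice and the depth of each library are therefore unknown, no difference below has a replicate check, and no test could be run. Differences are given on the log2(FPKM + 1) scale, where 1 is a 2-fold difference and where the change of a gene with a low value is understated. The only tested values are the authors' calls of different genes, deposited as 0 or 1 for each comparison. Since whole leaflets were measured, fewer cycling cells and less RNA per cycling cell cannot be told apart.

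Terc was listed at 0 FPKM in both Terc-/- groups and at 1.42 and 4.52 FPKM in the wild-type and heterozygous long-telomere groups. Notch1 itself was 39.1 and 25.1 FPKM in wild-type and heterozygous long-telomere valves, but 16.6 and 23.3 FPKM in wild-type and heterozygous short-telomere valves. On short telomeres the targeted gene was thus higher in the group labelled heterozygous, so directions in that setting are those of the labels. Markers of valve interstitial cells (8 genes, summed FPKM from 4289 to 7051) and endothelium (7 genes, 223 to 416) were present in every group. Mitochondrially encoded genes took 3.1% and 2.89% of all FPKM in wild-type and heterozygous long-telomere valves and 7.63% and 8.83% in wild-type and heterozygous short-telomere valves. The median difference of all genes was -0.23 between short and long telomeres in wild-type valves and -0.24 in heterozygous valves, so group differences are read against these shifts.

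Cells that prepare to divide first switch on genes for DNA replication under E2F transcription factors, which are released when cyclin-dependent kinases inactivate the retinoblastoma protein. A later wave of mitotic genes follows under the MuvB complex with B-Myb and FOXM1, and in resting cells the DREAM complex keeps both waves off. Adult valve leaflets are mostly quiescent, and transcripts of these waves mark cells in cycle, whatever their type.

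The cell cycle genes stood highest in heterozygous long-telomere valves. Their median level was 12.9 FPKM there, against 4.78 FPKM in wild-type long-telomere, 1.97 FPKM in wild-type short-telomere and 3.09 FPKM in heterozygous short-telomere valves. The median of all genes in the same order was 7.03, 6.30, 4.83 and 4.85 FPKM, so that the set lay above the typical gene in heterozygous long-telomere valves and below it in the other groups. Of the 42 genes, 40 had their highest value in heterozygous long-telomere valves, where 33.3% of all genes did, and the other 2, Ccnb2 and Ube2c, had theirs in wild-type short-telomere valves, as 19.2% of all genes did. The lowest value fell in wild-type short-telomere valves for 27 genes, in heterozygous short-telomere valves for 12 and in wild-type long-telomere valves for 3. Of all 18073 genes, 6960, 4705 and 3278 had their lowest value in these groups, in the same order. At least 10 FPKM was reached by 28 genes in heterozygous long-telomere valves, but by 5, 7 and 4 genes in the wild-type long-telomere, wild-type short-telomere and heterozygous short-telomere groups. Under 1 FPKM lay 0 genes in heterozygous long-telomere, 5 in wild-type long-telomere, 16 in wild-type short-telomere and 9 in heterozygous short-telomere valves. Counts at these levels were not made over all genes. Of all 18073 genes, 2010 were listed at 0 in wild-type short-telomere and 1181 in heterozygous short-telomere valves. In wild-type and heterozygous long-telomere valves 705 and 250 were. Values at or near 0 in wild-type short-telomere valves were thus not limited to the set.

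**Figure D1:**
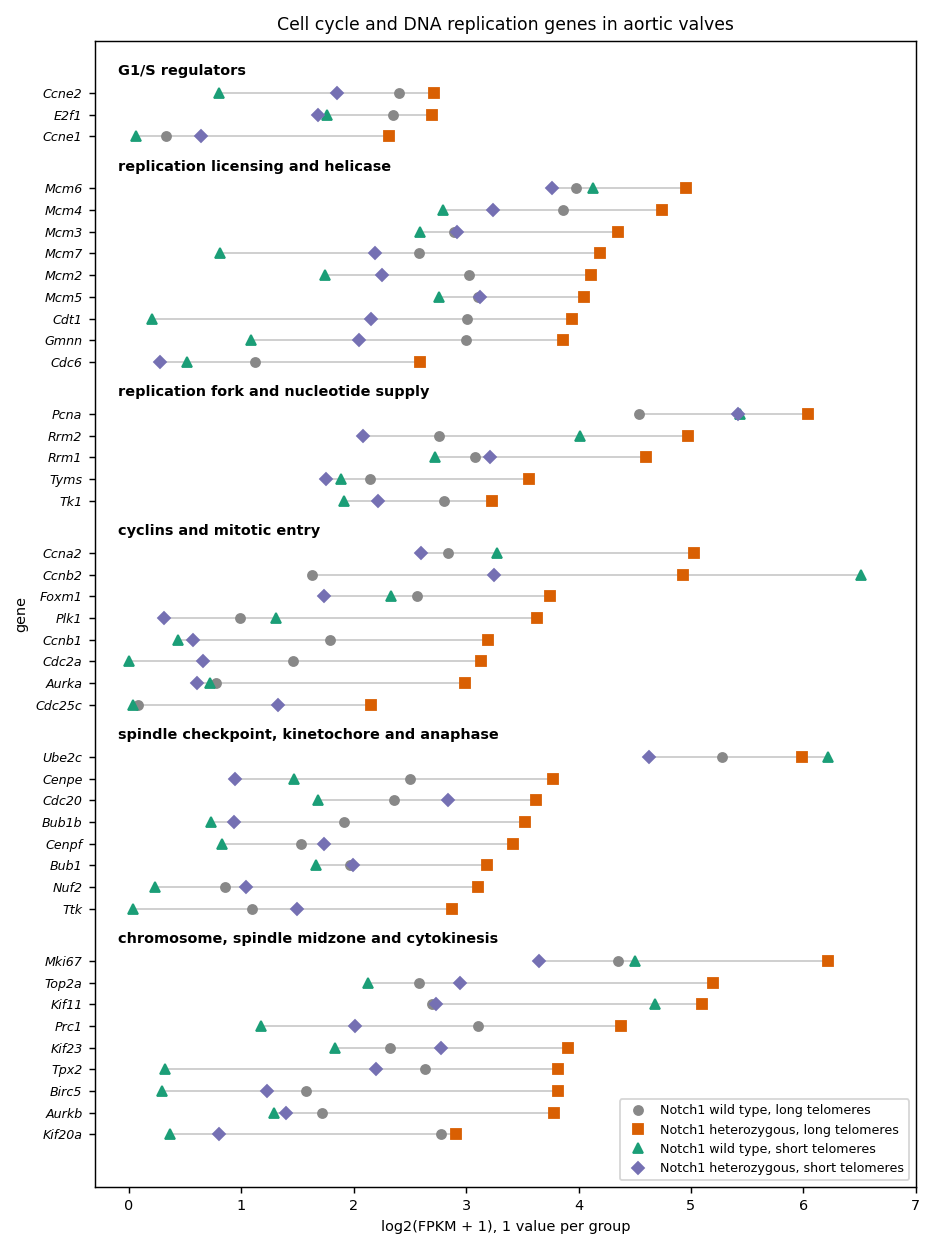
Level of each of the 42 genes as log2(FPKM + 1) on the horizontal axis, with 1 value per group, a grey line from the lowest to the highest group, and genes arranged by role. The orange squares of heterozygous long-telomere valves lie at the right end for 40 genes, and the green triangles of wild-type short-telomere valves do so for Ccnb2 and Ube2c.

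Because the genes stood high together in heterozygous long-telomere valves, its promoters were searched for the letters that the regulators of these waves bind. RefSeq (GRCm38.p6) gave 35 promoter windows for 33 of the genes, each from 250 bases before to 50 bases after a transcript start, with 2 windows each for Mcm7 and Prc1. Aurkb, Ccna2, Ccne2, Cdc25c, Foxm1, Gmnn, Kif20a, Mcm4 and Tpx2 had no window in the table. Motifs were sought on both strands: TTTGAA, the letters of the cell cycle homology region bound by MuvB; TTTGGCGC or TTTCCCGC, an E2F site; and CCAAT, the NF-Y box. Matches could overlap. Windows of 3 mitotic genes and 2 replication genes show the arrangement, printed from 5′ to 3′ on the strand of the gene with matches in capitals. They are Ccnb2 (chr9:70421505-70421804, minus strand), Plk1 (chr7:122159185-122159484, plus strand), Top2a (chr11:99024140-99024439, minus strand), Cdt1 (chr8:122567765-122568064, plus strand) and Mcm3 (chr1:20820263-20820562, minus strand).
Ccnb2: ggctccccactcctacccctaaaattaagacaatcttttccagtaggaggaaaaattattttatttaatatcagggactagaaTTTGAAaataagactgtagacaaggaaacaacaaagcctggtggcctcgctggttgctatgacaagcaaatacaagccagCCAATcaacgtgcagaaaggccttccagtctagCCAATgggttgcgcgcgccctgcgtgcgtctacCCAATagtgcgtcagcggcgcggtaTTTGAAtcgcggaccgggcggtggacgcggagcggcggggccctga
Plk1: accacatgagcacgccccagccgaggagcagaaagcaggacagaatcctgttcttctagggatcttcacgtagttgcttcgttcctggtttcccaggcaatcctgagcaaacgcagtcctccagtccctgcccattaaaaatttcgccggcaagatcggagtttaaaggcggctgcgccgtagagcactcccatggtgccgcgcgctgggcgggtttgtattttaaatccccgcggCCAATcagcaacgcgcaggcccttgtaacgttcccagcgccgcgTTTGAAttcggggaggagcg
Top2a: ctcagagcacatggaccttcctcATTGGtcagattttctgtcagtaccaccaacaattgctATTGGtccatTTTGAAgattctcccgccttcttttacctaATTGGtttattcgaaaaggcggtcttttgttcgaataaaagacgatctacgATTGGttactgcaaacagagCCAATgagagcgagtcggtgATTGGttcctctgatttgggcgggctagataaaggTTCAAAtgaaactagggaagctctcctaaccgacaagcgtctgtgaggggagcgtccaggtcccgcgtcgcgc
Cdt1: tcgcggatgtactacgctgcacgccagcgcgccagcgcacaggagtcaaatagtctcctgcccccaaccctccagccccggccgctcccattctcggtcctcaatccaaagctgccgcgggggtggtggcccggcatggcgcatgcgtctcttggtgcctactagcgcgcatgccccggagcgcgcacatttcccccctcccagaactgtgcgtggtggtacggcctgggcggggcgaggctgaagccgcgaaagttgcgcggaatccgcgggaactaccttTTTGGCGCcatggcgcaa
Mcm3: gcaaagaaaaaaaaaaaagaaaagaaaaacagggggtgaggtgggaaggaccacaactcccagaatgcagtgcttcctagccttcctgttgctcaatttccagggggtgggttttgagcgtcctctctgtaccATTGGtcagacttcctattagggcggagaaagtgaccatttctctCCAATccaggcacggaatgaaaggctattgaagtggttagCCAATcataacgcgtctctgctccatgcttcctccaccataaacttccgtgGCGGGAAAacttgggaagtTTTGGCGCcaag

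In the Ccnb2 window, 3 CCAAT boxes start 87, 54 and 21 bases before the transcript start and TTTGAA lies 4 bases after it, with another TTTGAA further upstream. Plk1 has CCAAT 14 bases before and TTTGAA 30 bases after the start, and Top2a has 6 CCAAT boxes on either strand with TTTGAA far upstream and its reverse complement 23 bases before the start. Cdt1 and Mcm3 hold E2F letters after the start, Cdt1 once at 32 bases and Mcm3 at 19 and 38 bases.

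The letters sought divided along the roles of the genes. TTTGAA was found in 15 of 20 windows of mitotic genes (75%) and in 1 of 15 windows of G1/S and replication genes (6.67%), that of Mcm2, while 17.9% of all 32851 promoter windows held it. Within 50 bases of the start, TTTGAA lay in 14 of the 20 mitotic windows, in 0 of the 15 replication windows and in 4.94% of all windows. The 2 E2F forms sought were found in 0 of 20 mitotic windows and in 6 of 15 replication windows (40%), against 1.56% of all windows. The 6 were those of Cdc6, Cdt1, Mcm3, Mcm5, Mcm6 and Mcm7. Other forms of the E2F site were not sought, so the count of 0 does not cover them. CCAAT was found in 18 mitotic windows (90%) and 9 replication windows (60%), against 37.4% of all windows. Between heterozygous and wild-type long-telomere valves, the median difference was 1.78 for the 15 genes with TTTGAA and 1.44 for the 18 without it, and 1.22 for the 6 genes with E2F letters and 1.61 for the 27 without them. A match says only that the letters are in the window.

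On long telomeres, loss of a copy of Notch1 went with higher values of all 42 genes. By comparison 55.9% of all genes were higher in heterozygous than in wild-type long-telomere valves. At least a 2-fold higher value was found for 32 of the 42 genes, against 10.9% of all genes, and a 2-fold lower value for 0 of 42, against 7.53% of all genes. At least a 4-fold higher value was found for 11 genes, against 2.69% of all genes. The median difference was 1.49, or 1.40 when centred on the median of all genes (0.09), and 32 genes were in the highest 10% of all genes. Differences ranged from 0.14 for Kif20a, a kinesin of the spindle midzone, to 3.30 for Ccnb2, cyclin B2. In the authors' deposited table only Ccnb2 was called different among the 42, where 0.415% of all genes were. The column of calls for this comparison carries the header of the short-telomere comparison and was assigned here from its values, so each call between heterozygous and wild-type long-telomere valves, those of Ccnb2, E2f8 and the thymocyte markers included, rests on that assignment. The mitotic genes lay higher than those of G1/S and replication: 23 of 25 against 9 of 17 passed 2-fold, with medians of 1.78 and 1.08.

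On short telomeres the groups labelled heterozygous and wild type lay closer together. The group labelled heterozygous was higher for 27 genes and lower for 15, where 53.5% of all genes were higher and 42.6% lower. A 2-fold higher value was found for 7 genes, against 12.5% of all genes, and a 2-fold lower value for 4, against 10.8% of all genes. These shares are near those of all genes, and the count of 7 became 16 when 0.1 in place of 1 was added to each FPKM, where 22.3% of all genes passed. The median difference was 0.35, against 0.06 for all genes. In the authors' deposited table Ccnb2 alone of the set was called, as lower in the group labelled heterozygous, where 0.476% of all genes were called.

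The Notch1 difference was smaller or reversed on short telomeres for most of the set. Subtracting the long-telomere difference from the short-telomere difference gave a value below 0 for 37 of 42 genes, against 49.8% of all genes, with a median of -1.20 against 0.00 for all genes. With 0.1 added in place of 1, the value was below 0 for 33 genes, with a median of -1.06. The lowest value was that of Ccnb2 (-6.56) and the highest that of Cdt1 (1.01), the factor that loads the helicase. With 1 added, all 8 genes of mitotic entry, all 8 of the checkpoint and all 5 of fork and nucleotide supply were below 0. So were 7 of 9 licensing genes, 7 of 9 chromosome and midzone genes and 2 of 3 G1/S genes. These role counts depend on the 1 added. Among the genes below 0, the plain ratio of heterozygous to wild type was larger on short than on long telomeres for Ttk (69.1 against 5.56) and Mcm7 (4.72 against 3.45). It was also larger for Cdc20 (2.79 against 2.72) and Cdc25c (65.6 against 62.5). Cdc2a, listed at 0 in wild-type short-telomere valves, has no such ratio there. In all, 27 genes were higher in heterozygous valves in both settings and 15 were higher on long and lower on short telomeres. The difference between the settings has no replicate check.

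**Figure D2:**
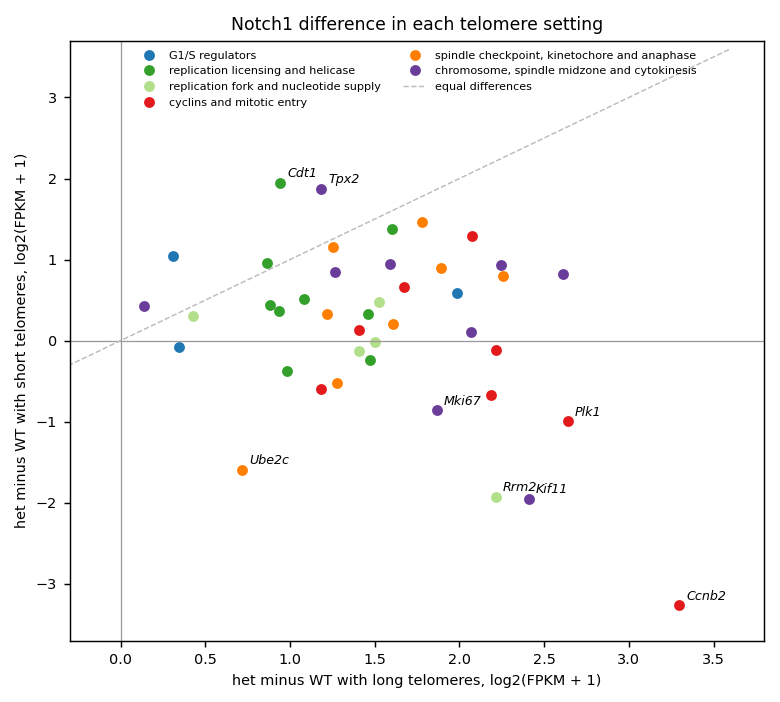
Each point is 1 of the 42 genes, with the difference of log2(FPKM + 1) between Notch1 heterozygous and wild-type valves on long telomeres (horizontal) and on short telomeres (vertical), coloured by role. All points lie right of 0, and 15 lie below 0 on the vertical axis, with Ccnb2 farthest at 3.30 and -3.26.

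Short telomeres in wild-type valves went with lower values for most of the set. Compared with wild-type long-telomere valves, 33 genes were lower and 9 higher, where 61.1% of all genes were lower and 36.6% higher. A 2-fold lower value was found for 15 genes, against 20.9% of all genes, and a 2-fold higher value for 3, against 8.9% of all genes. The median was -0.54, against -0.23 for all genes, and centring on all genes left 30 genes lower and 12 higher, with a median of -0.31. In the authors' deposited table Ccnb2 was called as higher and Cdt1 as lower in wild-type short-telomere valves, where 0.686% of all genes were called.

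In heterozygous valves all 42 genes were lower on short than on long telomeres, where 64.9% of all genes were. A 2-fold lower value was found for 37 genes, against 16.8% of all genes, and a 4-fold lower value for 18, against 4.54% of all genes. The median was -1.81, or -1.57 when centred. This comparison and that of Notch1 on long telomeres share the heterozygous long-telomere value, so the same high value enters both. The authors called 0 of the 42 genes here in their deposited table (the authors' deposited table calls 0.432% of all genes). Neither the test nor the threshold behind these calls is named in the sources used here.

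On the log2(FPKM + 1) scale, few genes of the set differed 2-fold between valves with both changes and those with neither. Against wild-type long-telomere valves, heterozygous short-telomere valves were higher for 15 genes and lower for 27, where 40.1% of all genes were higher and 58.2% lower. At least 2-fold higher were 2 genes (Ccnb2 and Cdc25c), against 7.48% of all genes, and at least 2-fold lower were 4, against 17.2% of all genes. The count of 4 depended on the scale. It became 11 when 0.1 in place of 1 was added to each FPKM, where 26.7% of all genes passed. With equal totals without mitochondrial genes it was also 11, where 25.4% of all genes passed. The median was -0.39, against -0.16 for all genes. Again the authors called 0 of the 42 in their table, where 0.526% of all genes were called in the authors' deposited table.

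**Figure D3:**
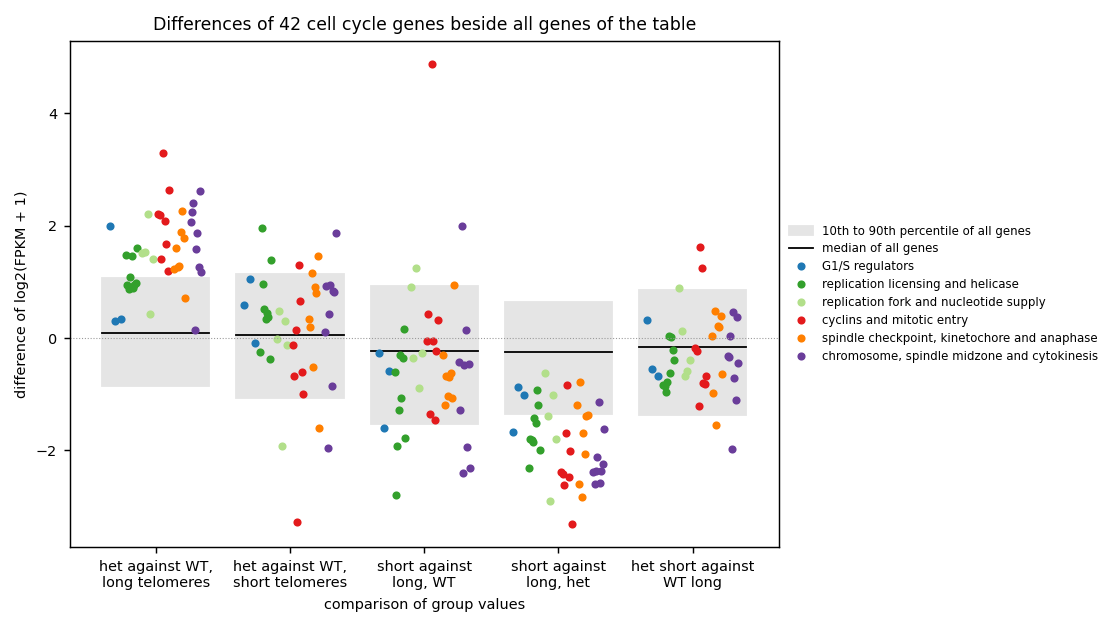
Difference of log2(FPKM + 1) in 5 comparisons of group values, with 1 point per gene coloured by role, a grey band from the 10th to the 90th percentile of all 18073 genes and a black line at their median. Of the 42 points, 32 lie in the highest 10% of all genes for heterozygous against wild type on long telomeres, and 32 in the lowest 10% for short against long telomeres in heterozygous valves.

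The regulators of the G1 to S step differed least on long telomeres, with a median difference of 0.34 and 1 of 3 past 2-fold. E2f1, the activating E2F factor, was 4.11 FPKM in wild-type long-telomere, 5.49 in heterozygous long-telomere, 2.40 in wild-type short-telomere and 2.21 in heterozygous short-telomere valves. Both short-telomere groups lay below both long-telomere groups. The difference between short and long telomeres was -0.59 in wild-type and -1.02 in heterozygous valves. Over all genes the medians were -0.23 and -0.24. Ccne1, cyclin E1, which activates Cdk2, was 0.254 FPKM in wild-type and 3.96 in heterozygous long-telomere valves, and 0.0452 and 0.565 in the wild-type and heterozygous short-telomere groups. It was high in heterozygous long-telomere valves alone (difference 1.98). Ccne2, cyclin E2, was 4.29 and 5.55 FPKM in wild-type and heterozygous long-telomere valves, and 0.741 and 2.60 FPKM in wild-type and heterozygous short-telomere valves. Here wild-type short-telomere valves stood lowest.

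Among the 9 genes of licensing and the helicase, 4 were at least 2-fold higher in heterozygous than in wild-type long-telomere valves (median 0.98), and 5 were at least 2-fold lower in wild-type short-telomere than in wild-type long-telomere valves (median -1.07). Cdt1 was 7.02 FPKM in wild-type long-telomere and 14.4 in heterozygous long-telomere valves, but 0.155 in wild-type short-telomere and 3.46 in heterozygous short-telomere valves. Its value in wild-type short-telomere valves was far below the others, and the fall of 2.80 on the log2 scale against wild-type long-telomere valves was called in the authors' deposited table. Mcm7, a helicase subunit, had a similar order, with 4.99 and 17.2 FPKM in wild-type and heterozygous long-telomere and 0.754 and 3.56 FPKM in wild-type and heterozygous short-telomere valves. Mcm6, another subunit and the highest of the 9, was 14.7, 30.02, 16.5 and 12.5 FPKM in wild-type long-telomere, heterozygous long-telomere, wild-type short-telomere and heterozygous short-telomere valves. Only its heterozygous long-telomere value stood apart. Gmnn, geminin, which binds and blocks Cdt1 and was chosen after its values were seen, was 6.99, 13.6, 1.12 and 3.13 FPKM in the same order, with both Terc-/- groups below both others.

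Genes of the fork and of nucleotide supply were higher by a median of 1.5 in heterozygous than in wild-type long-telomere valves, with 4 of 5 past 2-fold. Pcna, the sliding clamp of the polymerases, was 22.2 FPKM in wild-type long-telomere valves, 64.9 in heterozygous long-telomere valves, 42.4 in wild-type short-telomere valves and 41.9 in heterozygous short-telomere valves. It was lowest in wild-type long-telomere valves, unlike most of the set. A pseudogene named for Pcna, Pcna-ps2, stayed between 0.137 and 1.13 FPKM. Rrm2, the small subunit of ribonucleotide reductase made in S phase, was 5.78 and 30.5 FPKM in wild-type and heterozygous long-telomere valves, and 15.1 and 3.23 FPKM in wild-type and heterozygous short-telomere valves. The Notch1 difference was thus 2.21 on long and -1.93 on short telomeres. Rrm1, the large subunit, was 7.45 and 23.3 FPKM in wild-type and heterozygous long-telomere, and 5.62 and 8.25 FPKM in wild-type and heterozygous short-telomere valves, higher in heterozygous valves in both settings. Tk1, the thymidine kinase of the salvage pathway, varied least of the 5, with 5.97, 8.38, 2.77 and 3.66 FPKM in wild-type long-telomere, heterozygous long-telomere, wild-type short-telomere and heterozygous short-telomere valves.

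The genes of mitotic entry had the largest differences on long telomeres, with 8 of 8 past 2-fold and a median of 2.13. Ccnb2 was 2.10 FPKM in wild-type long-telomere valves, 29.4 in heterozygous long-telomere valves, 90.04 in wild-type short-telomere valves and 8.48 in heterozygous short-telomere valves. It was highest in wild-type short-telomere valves and lowest in wild-type long-telomere valves, and was called in 3 comparisons in the authors' deposited table: higher in heterozygous than in wild-type long-telomere valves (3.30), higher in wild-type short-telomere than in wild-type long-telomere valves (4.88) and lower in the group labelled heterozygous on short telomeres (-3.26). A pseudogene named for Ccnb2, Ccnb2-ps, whose sequence was not compared here, was 7.58, 7.16, 0.179 and 8.71 FPKM in wild-type long-telomere, heterozygous long-telomere, wild-type short-telomere and heterozygous short-telomere valves. It was lowest where Ccnb2 was highest, and the sources used here do not say how reads were divided between gene and copy, which leaves the level of Ccnb2 uncertain.

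The partners of Ccnb2 had another order. Ccnb1, cyclin B1, was 2.45, 8.14, 0.355 and 0.490 FPKM in wild-type long-telomere, heterozygous long-telomere, wild-type short-telomere and heterozygous short-telomere valves, and Cdc2a, the kinase that both B cyclins activate, was 1.75, 7.79, 0 and 0.582 FPKM. Neither was high in wild-type short-telomere valves; the pair was named with its values known. Plk1, a kinase of mitotic entry and spindle assembly, was 0.988 and 11.4 FPKM in wild-type and heterozygous long-telomere valves and 1.48 and 0.245 FPKM in wild-type and heterozygous short-telomere valves. Foxm1, the transcription factor of the mitotic wave, was 4.90 and 12.4 FPKM in wild-type and heterozygous long-telomere valves and 4.05 and 2.34 FPKM in wild-type and heterozygous short-telomere valves. For both genes the heterozygous long-telomere value was the highest and the heterozygous short-telomere value the lowest. In wild-type valves the median of the 8 genes differed by -0.05 between short and long telomeres, a sign that turned to 0.18 when centred on all genes.

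Of the 8 checkpoint, kinetochore and anaphase genes, 7 were at least 2-fold higher in heterozygous than in wild-type long-telomere valves (median 1.44). Ttk, the kinase that starts checkpoint signalling, was 1.14 and 6.36 FPKM in wild-type and heterozygous long-telomere valves and 0.0264 and 1.83 FPKM in wild-type and heterozygous short-telomere valves. Nuf2, a subunit of the complex that ties kinetochores to microtubules, was 0.804 and 7.62 FPKM, and 0.178 and 1.05 FPKM, in the same order. Both were near 0 in wild-type short-telomere valves. Bub1, a checkpoint kinase, was 2.91, 8.09, 2.17 and 2.99 FPKM in wild-type long-telomere, heterozygous long-telomere, wild-type short-telomere and heterozygous short-telomere valves, nearly level outside the heterozygous long-telomere group. Ube2c, the ubiquitin-conjugating enzyme of the anaphase-promoting complex and the most abundant of the 8, was 37.7 and 62.6 FPKM in wild-type and heterozygous long-telomere valves and 73.7 and 23.8 FPKM in wild-type and heterozygous short-telomere valves. Like Ccnb2 it had its highest FPKM in wild-type short-telomere valves, but not far above heterozygous long-telomere valves. All FPKM without mitochondrial genes summed to 538644 in wild-type short-telomere and 404835 in heterozygous long-telomere valves. The order of these groups for Ube2c with equal totals was not computed.

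Chromosome, midzone and cytokinesis genes were higher by a median of 1.86 in heterozygous than in wild-type long-telomere valves, with 8 of 9 past 2-fold. Mki67, which coats mitotic chromosomes and is the usual marker of proliferating cells, was 19.5 and 73.5 FPKM in wild-type and heterozygous long-telomere valves and 21.7 and 11.5 FPKM in wild-type and heterozygous short-telomere valves. Both wild-type groups lay close together, with the heterozygous groups above and below them. Birc5, survivin of the chromosomal passenger complex, was 1.97 and 13.1 FPKM in wild-type and heterozygous long-telomere valves and 0.230 and 1.34 FPKM in wild-type and heterozygous short-telomere valves. Tpx2, a spindle assembly factor that activates Aurora A, was 5.22 and 13.1 FPKM in wild-type and heterozygous long-telomere valves and 0.250 and 3.58 FPKM in wild-type and heterozygous short-telomere valves. Birc5 and Tpx2 were lowest in wild-type short-telomere valves, and Mki67 in heterozygous short-telomere valves. Kif23, a kinesin of the cytokinesis bridge, varied least of the 9, with 4.0, 14.0, 2.57 and 5.85 FPKM in wild-type long-telomere, heterozygous long-telomere, wild-type short-telomere and heterozygous short-telomere valves.

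A few further genes of this role were chosen after their values were seen. Kif11, the kinesin that pushes spindle poles apart, was 5.47 and 33.3 FPKM in wild-type and heterozygous long-telomere valves and 24.6 and 5.64 FPKM in wild-type and heterozygous short-telomere valves, high in the same groups as Rrm2. Top2a, the topoisomerase that untangles replicated chromosomes, was 4.98, 35.6, 3.37 and 6.70 FPKM in wild-type long-telomere, heterozygous long-telomere, wild-type short-telomere and heterozygous short-telomere valves. Kif20a was the only gene of the 42 under 0.3 in its long-telomere Notch1 difference, with 5.85 and 6.52 FPKM in wild-type and heterozygous long-telomere valves and 0.292 and 0.741 FPKM in wild-type and heterozygous short-telomere valves.

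The rest of the pathway, 93 further genes in 4 lists, differed in the same direction on long telomeres by less. Heterozygous long-telomere valves held the highest value of 70 of the 93, against 33.3% of all genes. Against wild-type long-telomere valves, 81 were higher, against 55.9% of all genes, and 12 lower. At least a 2-fold higher value was found for 43, against 10.9% of all genes, and a 2-fold lower value for 2, against 7.53%, with a median of 0.82 against 0.09 for all genes. E2f8, a repressive E2F factor and itself a cell cycle gene, was 0.570 and 11.3 FPKM in wild-type and heterozygous long-telomere valves and 0.168 and 0.895 FPKM in wild-type and heterozygous short-telomere valves. It alone of the 93 was called in the authors' deposited table, as higher in heterozygous long-telomere valves, where 0.415% of all genes were called. In heterozygous valves 83 of the 93 were lower on short than on long telomeres, against 64.9% of all genes, and 48 were at least 2-fold lower, against 16.8%. The median was -1.07, against -0.24 for all genes.

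Among these lists the other mitotic genes differed most, with 24 of 33 at least 2-fold higher in heterozygous than in wild-type long-telomere valves and a median of 1.55. Spc24, a partner of Nuf2, was 3.49 and 15.8 FPKM in wild-type and heterozygous long-telomere valves, was listed at 0 in wild-type short-telomere valves and was 11.3 FPKM in heterozygous short-telomere valves. Kif15, a spindle kinesin, was 3.45 and 14.6 FPKM in wild-type and heterozygous long-telomere valves and 0.636 and 0.860 FPKM in wild-type and heterozygous short-telomere valves. Bub3, a checkpoint protein and the most abundant of the list, was 39.2, 66.5, 22.0 and 47.4 FPKM in wild-type long-telomere, heterozygous long-telomere, wild-type short-telomere and heterozygous short-telomere valves. For Spc24, Kif15 and Bub3, wild-type short-telomere valves stood lowest, the group with the most genes of the whole table listed at 0 (2010). Of all 33 in the list, 15 were lowest in wild-type short-telomere and 16 in heterozygous short-telomere valves.

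Of 30 genes of origin firing and the polymerases, 11 were at least 2-fold higher in heterozygous than in wild-type long-telomere valves (median 0.77). Dbf4, the activator of the origin-firing kinase Cdc7, was 0.730 and 9.57 FPKM in wild-type and heterozygous long-telomere valves and 0.518 and 1.64 FPKM in wild-type and heterozygous short-telomere valves. Cdc45, the helicase cofactor, was 3.52, 9.33, 0.559 and 1.97 FPKM in wild-type long-telomere, heterozygous long-telomere, wild-type short-telomere and heterozygous short-telomere valves. Gins4, of the same helicase, was 11.5 and 20.02 FPKM in wild-type and heterozygous long-telomere valves and 37.6 and 27.6 FPKM in wild-type and heterozygous short-telomere valves. Gins4 was highest where Cdc45 was lowest, though both were higher in heterozygous than in wild-type long-telomere valves.

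The E2F and MuvB list (14 genes, 5 at least 2-fold higher, median 0.44) and the G1 cyclins, kinases and inhibitors (16 genes, 3 at least 2-fold higher, median 0.41) differed least in the same comparison. Tfdp2, a dimer partner of E2F factors, was 40.4, 31.6, 70.0 and 47.7 FPKM in wild-type long-telomere, heterozygous long-telomere, wild-type short-telomere and heterozygous short-telomere valves, and so was lowest where the cell cycle genes were highest. Lin37, a MuvB subunit, was 10.8 and 15.2 FPKM in wild-type and heterozygous long-telomere valves and 1.21 and 7.47 FPKM in wild-type and heterozygous short-telomere valves. Cdk2, the kinase of cyclins E and A, was 2.96 and 15.5 FPKM in wild-type and heterozygous long-telomere valves and 5.68 and 2.63 FPKM in wild-type and heterozygous short-telomere valves, with the peak of the main set. Cdkn1a, the inhibitor p21 that p53 induces, was 75.4 and 138 FPKM in wild-type and heterozygous long-telomere valves and 280.3 and 274 FPKM in wild-type and heterozygous short-telomere valves. Both Terc-/- groups were above both others, and Cdkn1a was not called in any of the 5 comparisons in the authors' deposited table.

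Markers of other cell types also differed between the groups. Summed over 12 genes of immature thymocytes, which divide rapidly in the thymus, the level was 143 FPKM in wild-type long-telomere, 1342 in heterozygous long-telomere, 205 in wild-type short-telomere and 20.1 in heterozygous short-telomere valves. Of these 12 genes, 11 were highest in heterozygous long-telomere valves and 12 lowest in heterozygous short-telomere valves. Dntt, the terminal transferase of lymphocyte precursors, was 10.9 and 139 FPKM in wild-type and heterozygous long-telomere valves and 10.3 and 0.198 FPKM in wild-type and heterozygous short-telomere valves, and Ptcra, the pre-T-cell receptor chain, was listed at 0 in heterozygous short-telomere valves. Dntt and Ptcra were picked outside the rule for named genes. Calls in the authors' deposited table covered 7 of the 12 between heterozygous and wild-type long-telomere valves and 11 between short and long telomeres in heterozygous valves. Of all genes 0.415% and 0.432% were called in these comparisons in the authors' deposited table. Thymocyte markers and the cell cycle genes were thus highest in the same group. From wild-type long-telomere to wild-type short-telomere valves, the summed FPKM went from 143 to 205 for the thymocyte genes and from 255 to 352 for the cell cycle genes. Most of the rise of the cell cycle sum was that of Ccnb2, of uncertain level, from 2.10 to 90.04 FPKM, while 33 of the 42 genes were lower. Over the same groups the median went from 10.4 to 10.9 FPKM for the thymocyte genes and from 4.78 to 1.97 FPKM for the cell cycle genes. The part of thymocytes in the higher cell cycle values was not tested.

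The 8 neutrophil genes were all highest in wild-type short-telomere valves, where Ccnb2 and Ube2c peaked, with a sum of 1754 FPKM against 11.6 in wild-type long-telomere, 38.7 in heterozygous long-telomere and 156 in heterozygous short-telomere valves. Ngp, Camp and Elane were listed at 0 in wild-type long-telomere valves, Elane in heterozygous long-telomere valves, and Mpo and Elane in heterozygous short-telomere valves. Erythroid genes (6 of 7 listed, Klf1 not found) summed to 21569 FPKM in wild-type short-telomere valves, against 11724 in wild-type long-telomere, 4950 in heterozygous long-telomere and 11051 in heterozygous short-telomere valves. B cell genes (6 of 7, Igll1 not found) stayed between 11.8 and 21.5 FPKM in sum, with Vpreb1 listed at 0 in both wild-type groups. Macrophage genes summed to 513, 620, 374 and 928 FPKM in wild-type long-telomere, heterozygous long-telomere, wild-type short-telomere and heterozygous short-telomere valves. Platelet genes summed to 3079 and 121 FPKM in wild-type and heterozygous long-telomere valves and 1946 and 398 FPKM in wild-type and heterozygous short-telomere valves. Smooth muscle genes summed to 1065 and 181 FPKM in wild-type and heterozygous long-telomere valves and 544 and 379 FPKM in wild-type and heterozygous short-telomere valves. Melanocyte genes (4 of 4 found) summed to 141 and 164 FPKM in wild-type and heterozygous long-telomere valves and 95.5 and 29.1 FPKM in wild-type and heterozygous short-telomere valves. Their sum, like the cell cycle genes, was highest in heterozygous long-telomere valves, as were 3 of the 4 genes. All 4 were at least 4-fold lower in heterozygous short-telomere than in heterozygous long-telomere valves (median -2.31), against 4.54% of all genes. Only 1 was 4-fold lower there than in wild-type long-telomere valves, and 2 than in wild-type short-telomere valves. Mesothelial genes summed to 44.0, 10.7, 17.1 and 4.60 FPKM, and cardiomyocyte genes to 2941, 3737, 3177 and 4994 FPKM, in wild-type long-telomere, heterozygous long-telomere, wild-type short-telomere and heterozygous short-telomere valves. The part of these cells in the values of Ccnb2, Ube2c or other genes was not tested.

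**Figure D4:**
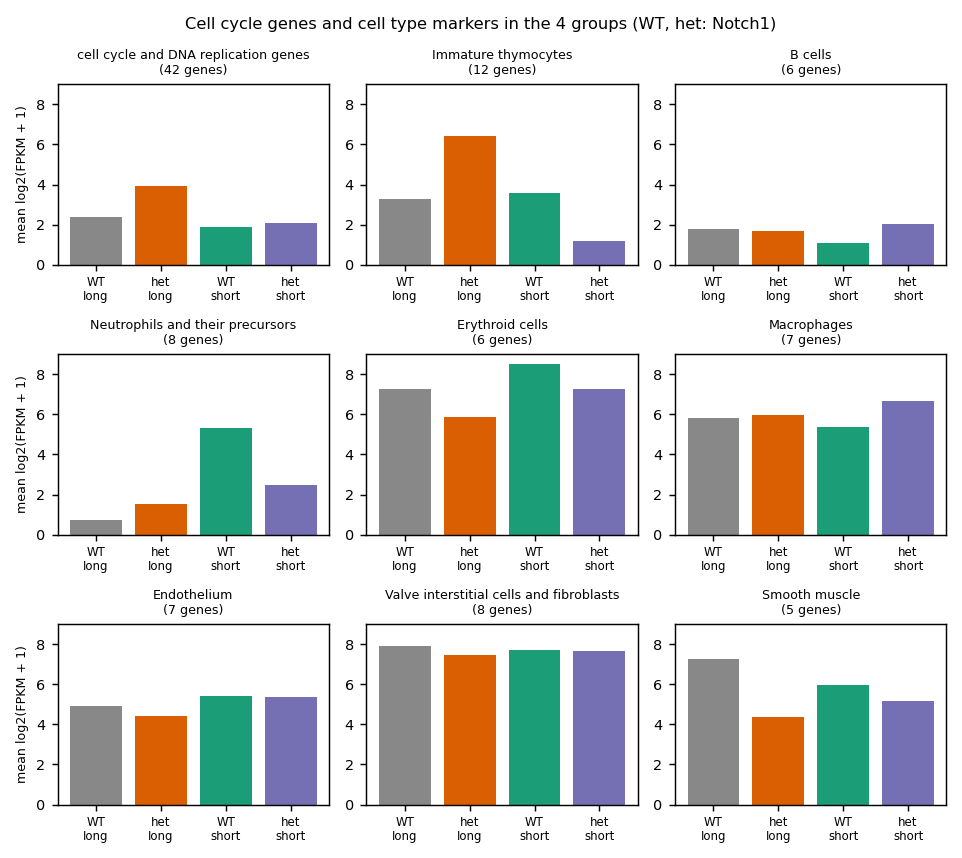
Mean log2(FPKM + 1) of the 42 cell cycle genes and of 8 marker lists in the 4 groups, with 1 bar per group starting at 0 and no error, since the table holds 1 value per group. Bars of the cell cycle genes and of immature thymocytes are highest in heterozygous long-telomere valves (3.91 and 6.40), those of neutrophils and erythroid cells in wild-type short-telomere valves.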

How the data were processed

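RNA-seq libraries of 15 mice were made with a linear amplification kit that does not keep the strand (NuGen Ovation V2) and read, 4 to a lane, as paired ends of 100 bp, as the labels' protocols say. The submitters' processing notes name FastQC, TopHat, SAMtools, Picard and mm9, with no version. Neither the quantifier nor the annotation or test is named in the sources used here. What the authors deposited is, per the file headers, an FPKM value for each gene in each group, so that libraries had been pooled or averaged beforehand. The authors also deposited 5 columns of 0 or 1, read here as their calls. A header naming heterozygous against wild type on short telomeres stands over 2 columns. The first of them was assigned to heterozygous against wild type on long telomeres from its values: for that pair of groups alone every called gene differed by 4-fold or more.

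With no value per library, a limma test, the choice for values per mouse, could not be run, and results are differences of log2(FPKM + 1) beside the same over all 18073 genes. Of these, 16962 (93.9%) matched GENCODE vM21 by identifier. Orc1 to Orc6 and Cdc45 were listed under older names and Lin52 under a clone name. Alternatives were a pseudocount of 0.1, a mean of at least 1 FPKM, centring on the median of all genes, equal totals without mitochondrial genes and a 4-fold threshold. Genes named with values were, in each role or list, those called, the highest by mean, the 2 of largest range and, for the 42 genes, the one of smallest range; others are marked. The 42 genes, lists, rule and motifs were chosen with earlier results of these data known. Code in Python 3.11.15 (numpy 2.4.6, pandas 2.3.3) was tested on simulated data.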

Additional observations from a re-analysis of the deposited data

How the results depend on the processing

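All 5 median differences of the 42 genes kept their sign under every alternative tried, and of 70 alternative values 58 stayed near the main ones (medians within 0.58 on the log2 scale, counts within 1.5 times) and 12 moved. A 4-fold threshold lowered the counts by its construction: heterozygous against wild type on long telomeres from 32 to 11 higher, heterozygous against wild type on short telomeres from 7 to 0 higher and from 4 to 1 lower, short against long telomeres in wild-type valves from 3 to 1 higher and from 15 to 3 lower, short against long telomeres in heterozygous valves from 37 to 18 lower, and both changes against neither from 2 to 0 higher and from 4 to 0 lower. A pseudocount of 0.1 raised heterozygous against wild type on short telomeres from 7 to 16 higher, and both changes against neither from 4 to 11 lower. Centring raised short against long telomeres in wild-type valves from 3 to 5 higher, and equal totals without mitochondrial genes raised both changes against neither from 4 to 11 lower. The filter on low values kept 42 of 42 genes and 15044 of 18073 in all. No paired analysis was possible because the table holds 1 value per group and none per mouse, and for the same reason no library could be left out. Depth is unknown, so values under 1 FPKM, 16 of 42 genes in wild-type short-telomere valves, have an unknown counting error.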

Other observations

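Subunits that work in fixed proportion were compared by FPKM, a comparison chosen after the values were seen. The highest of the 6 helicase subunits Mcm2 to Mcm7 was 2.95 times the lowest in wild-type long-telomere, 1.93 times in heterozygous long-telomere, 21.9 times in wild-type short-telomere and 3.52 times in heterozygous short-telomere valves. Mcm6 was the highest in all 4 groups, and Mcm7 the lowest in all but heterozygous long-telomere valves, where Mcm5 was. For the 4 genes of the chromosomal passenger complex (Aurkb, Birc5, Incenp, Cdca8) the ratio was 2.36 and 2.38 in wild-type and heterozygous long-telomere valves, and 6.98 and 3.77 in wild-type and heterozygous short-telomere valves. For ribonucleotide reductase, Rrm1 exceeded Rrm2 1.29 times in wild-type long-telomere and 2.55 times in heterozygous short-telomere valves, while Rrm2 exceeded Rrm1 1.31 times in heterozygous long-telomere and 2.69 times in wild-type short-telomere valves. In each of these complexes the ratio was largest in wild-type short-telomere valves. The lowest values there, 0.754 FPKM for Mcm7 and 0.230 FPKM for Birc5, have an unknown counting error. For ribonucleotide reductase the ratio was little above that of heterozygous short-telomere valves (2.69 against 2.55), where the other subunit was in excess.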
